A study of Homo sapiens with 6 samples.

Results

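Pyruvate is the last product of glycolysis, and a cell can send it to lactate, to acetyl-CoA or to oxaloacetate. The genes described here decide among those fates: the lactate dehydrogenase subunits LDHA and LDHB, the pyruvate dehydrogenase subunit PDHA1, the kinases PDK1, PDK2, PDK3 and PDK4 that switch pyruvate dehydrogenase off, the pyruvate carboxylase gene PC, and the lactate transporters SLC16A1 and SLC16A3. The set was named by these 10 symbols, and a gene was taken through a probe set that names it and no other gene. Of the 10, 8 were found this way among 18417 genes tested, each with 1 probe set, and SLC16A1 and SLC16A3 were not analysed here.

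The cells were A375, an established human melanoma line whose BRAF gene carries the activating mutation named in the series title. They were treated for 24 h with vehicle (0.1% DMSO, 3 arrays) or with 10 μM vemurafenib, an inhibitor of the mutant BRAF kinase (3 arrays). All 6 arrays thus come from 1 cell line, one drug concentration and one time. The design text describes the replicates as separate cell stocks handled on separate days, and pairs vehicle with drug dishes by batch letter. Values are log2 levels per probe set after RMA, a background correction, normalization and summary of probes, so a difference of 1 is a doubling. Every change is vemurafenib minus vehicle, and because all cells of a dish are pooled, fewer cells with a transcript and less transcript per cell cannot be told apart.

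In many tumours lactate dehydrogenase A turns most pyruvate into lactate even when oxygen is present, a trait called aerobic glycolysis. The alternative is entry into the mitochondrion, where the pyruvate dehydrogenase complex makes acetyl-CoA for the citric acid cycle and pyruvate carboxylase makes oxaloacetate to refill it. The kinases of the PDK family phosphorylate the E1 alpha subunit encoded by PDHA1 and so hold the complex inactive, and dedicated phosphatases release it.

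With vemurafenib, LDHA and PDK1 fell while PDK2, PDK4 and PC rose. PDK2 showed the largest change of the set, 2.04-fold higher, and PDK1 the next, 1.83-fold lower. PC rose 1.53-fold, PDK4 rose 1.39-fold and LDHA fell 1.34-fold. LDHB, PDK3 and PDHA1 did not pass the threshold, which was an adjusted p of 0.05 in limma, a linear model fitted to all genes, with Benjamini-Hochberg adjustment. Thus 3 of the 8 genes rose and 2 fell. Among all genes 23.2% passed as higher, 22.2% as lower and 45.5% in either direction, so a call in itself is common in this comparison and the 5 calls among 8 genes (62.5%) set nothing apart. Groups of arrays did not overlap for 6 of the 8 genes, 3 with the vemurafenib arrays above and 3 below. Over all genes the corresponding shares were 55.4% for either direction, 26.9% above and 28.5% below. The median change of the 8 genes was 0.03 and that of all genes -0.05. In size the changes of PDK2 and PDK1 exceeded those of 94.6% and 92.5% of all genes, against 75.5% for LDHA.

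**Figure D1:**
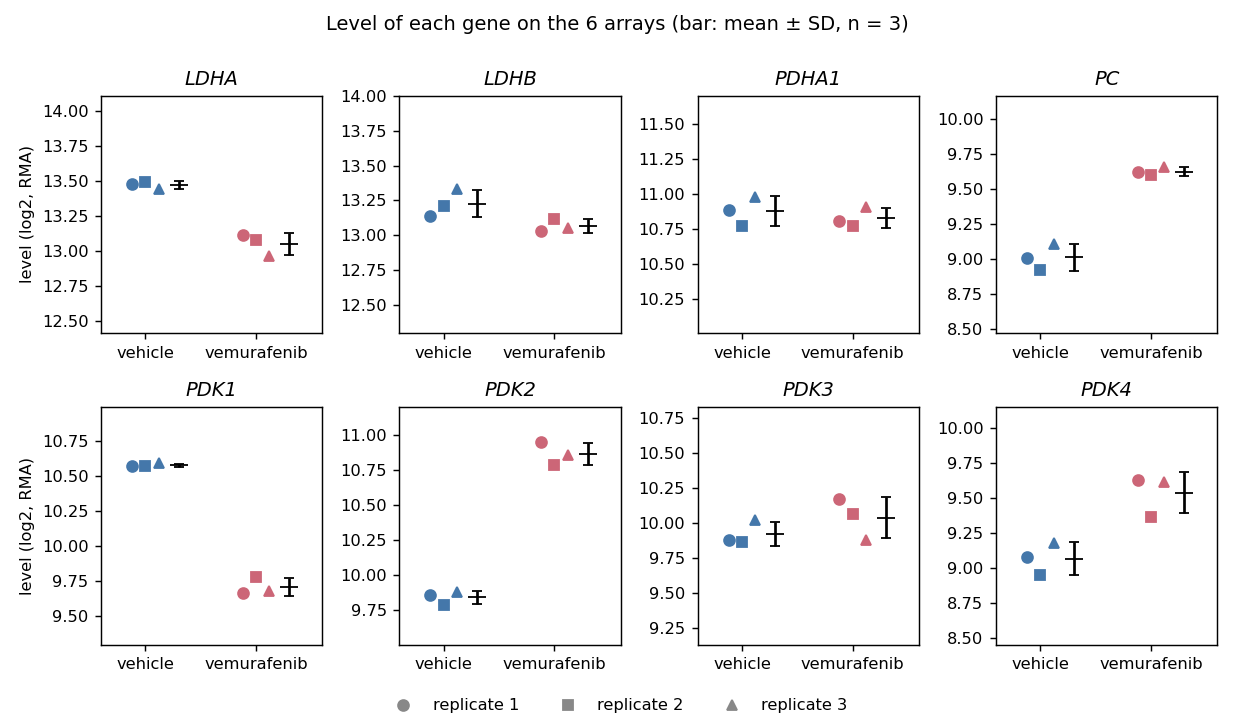
Each panel shows 1 gene, with its log2 level on the y axis, the 3 vehicle arrays in blue, the 3 vemurafenib arrays in red and the mean ± SD of each group as a black bar. All panels span the same log2 range but start at different levels, so changes can be compared between panels and levels cannot. PDK1 and LDHA step down, PDK2, PDK4 and PC step up, and PDK3 and PDHA1 overlap between groups.

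LDHA encodes the M subunit of lactate dehydrogenase, which favours reduction of pyruvate to lactate (probe set 7938777). Its log2 level was 13.48, 13.49 and 13.44 on the vehicle arrays and 13.11, 13.08 and 12.96 on the vemurafenib arrays. All 3 drug arrays lay below all 3 vehicle arrays, and the gap was wider than the range within either group. The means were 13.47 ± 0.03 and 13.05 ± 0.08 (SD, n = 3), a log2 change of -0.42 (SE 0.07, 95% interval -0.58 to -0.26) with a limma adjusted p of 0.000521.

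LDHB encodes the H subunit, which favours the return of lactate to pyruvate (probe set 7961693). Its level was 13.14, 13.21 and 13.33 with vehicle and 13.03, 13.12 and 13.05 with vemurafenib. The drug arrays again lay below, but the highest of them (13.12) nearly met the lowest vehicle array (13.14), closer than the spread within either group. The change of -0.16 (SE 0.08, 95% interval -0.33 to 0.01) did not pass in limma (adjusted p 0.108). It did pass when the arrays were first centred on their medians (-0.22, limma adjusted p 0.0369) and when limma's variance was fitted with an intensity trend and robustly (0.0163), within a range of 0.0163 to 0.341 over the 14 alternatives.

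The promoter of LDHA is shown because the gene fell and is a known target of MYC and of the hypoxia-inducible factors, whose binding motifs are CACGTG and ACGTG. The 250 bases before the outermost RefSeq start, chr11:18394313-18394562 (GRCh38.p14, plus strand), are printed 5′ to 3′ with matches to either motif, on either strand, in capitals.
LDHA: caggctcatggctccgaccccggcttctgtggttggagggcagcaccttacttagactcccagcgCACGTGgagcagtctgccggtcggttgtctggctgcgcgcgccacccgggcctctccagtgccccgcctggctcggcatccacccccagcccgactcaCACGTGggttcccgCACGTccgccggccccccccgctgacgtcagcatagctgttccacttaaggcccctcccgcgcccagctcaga
CACGTG occurred 2 times in this stretch, from bases -185 and -87 relative to the start. ACGTG was counted 5 times, of which 4 lie inside those palindromes and the other, on the opposite strand, begins at -73. The inner of the 2 listed starts of LDHA had no match to either motif. LDHB, with a single start listed, had none in the same window. Over all 35116 RefSeq promoter windows of 300 bases (250 before and 50 after a start), 7.3% held CACGTG and 21.4% held ACGTG.

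The kinases of pyruvate dehydrogenase moved in opposite directions. PDK1, the isoform known as a target of hypoxia signalling (probe set 8046408), stood at 10.57, 10.57 and 10.59 with vehicle and at 9.66, 9.78 and 9.68 with vemurafenib. The vehicle arrays were nearly identical, and the drug arrays all lay lower by far more than the spread of either group. The means were 10.58 ± 0.01 and 9.71 ± 0.07 (SD, n = 3), a change of -0.87 (SE 0.07, 95% interval -1.02 to -0.72) with a limma adjusted p of 1.53e-06.

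PDK2, an isoform expressed in most tissues (probe set 8008263), moved the other way. Its values were 9.86, 9.79 and 9.88 with vehicle and 10.95, 10.79 and 10.86 with vemurafenib. Every drug array lay above every vehicle array, and the change of 1.03 (SE 0.07, 95% interval 0.87 to 1.19) had a limma adjusted p of 6.22e-07. The means were 9.84 ± 0.05 and 10.87 ± 0.08 (SD, n = 3).

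PDK4, the isoform induced by fasting and by fatty acid signals in many tissues (probe set 8141094), read 9.08, 8.95 and 9.18 with vehicle and 9.63, 9.37 and 9.62 with vemurafenib. Its groups did not overlap, although vemurafenib replicate 2 stood clearly below the other drug arrays. The means were 9.07 ± 0.11 and 9.54 ± 0.15 (SD, n = 3), and the change of 0.47 (SE 0.09, 95% interval 0.27 to 0.67) passed in limma with an adjusted p of 0.00140.

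PDK3 (probe set 8166511) showed no such separation. It read 9.88, 9.86 and 10.02 with vehicle and 10.17, 10.06 and 9.88 with vemurafenib, so the groups overlapped. The change of 0.11 (SE 0.09, 95% interval -0.08 to 0.31, limma adjusted p 0.313) leaves room for a rise of up to 0.31 and a fall of up to 0.08 on the log2 scale.

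**Figure D2:**
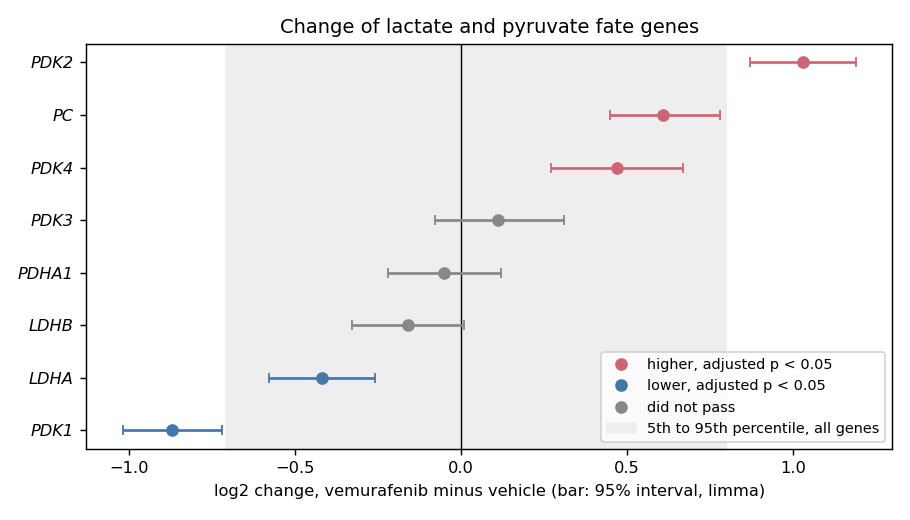
The x axis gives the log2 change, vemurafenib minus vehicle, and each point is 1 gene with its 95% interval from limma. Red points passed as higher, blue as lower and grey did not pass, and the shaded band holds the 5th to 95th percentile of all genes (-0.71 to 0.80). PDK2 (1.03) and PDK1 (-0.87) lie outside the band on opposite sides, and the other 6 genes lie inside it.

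Differences taken within each array show whether 2 genes of the set changed unequally, whatever their levels. PDK1 minus PDK2 shifted by -1.90 on the log2 scale between vehicle and vemurafenib, PDK1 minus PDK4 by -1.34 and PDK1 minus PDK3 by -0.98. PDK2 minus PDK3 shifted by 0.91, PDK2 minus PDK4 by 0.56 and PDK3 minus PDK4 by -0.36. Outside the kinases, LDHA minus LDHB shifted by -0.26 and PDHA1 minus PC by -0.66. The arrays of the groups did not overlap in any of these 8 pairs. The pairs share genes and so are not independent, and the share over other pairs of genes was not computed. Among single genes the groups did not overlap for 55.4%, so such a separation is common in this comparison. An exact 2-sided permutation test over the 6 arrays gave p = 0.10 for each, also after adjustment over the 8 pairs, and 0.10 is the smallest p that 3 arrays against 3 can give. This test therefore could not pass the threshold at any size of difference.

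**Figure D3:**
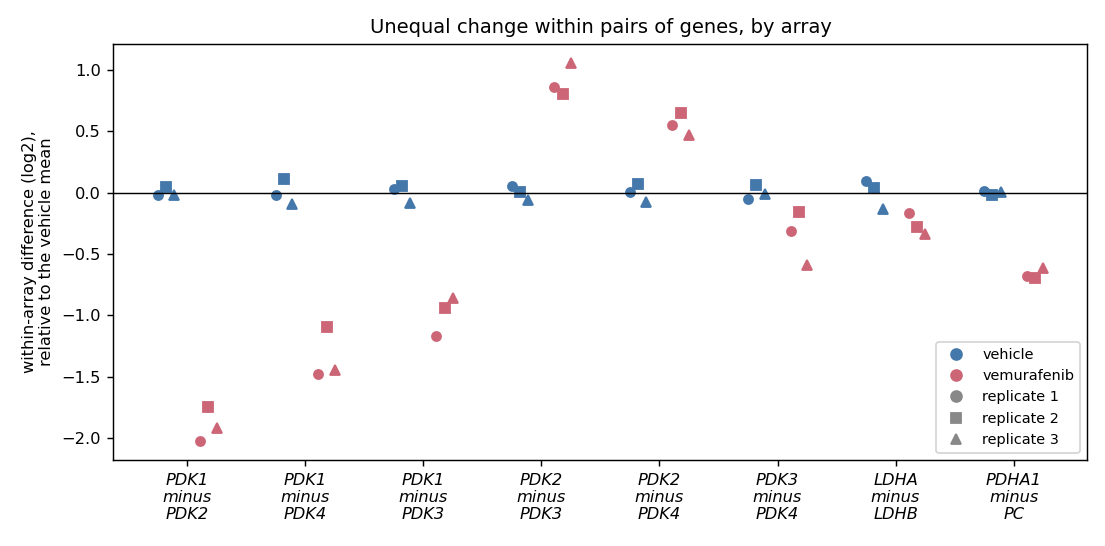
For each pair of genes the y axis gives the difference of their log2 values within an array, relative to the vehicle mean, with vehicle arrays in blue, vemurafenib arrays in red and a marker shape for each replicate number. The red points of PDK1 minus PDK2 lie lowest, around the shift of -1.90, and those of LDHA minus LDHB lie closest to 0, around -0.26.

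Stretches of inner promoters of the 2 kinases with the largest changes are shown, from a gene that fell and one that rose. Each is a stretch of 30 bases chosen around matches at an inner start. That both hold matches is therefore not a result. Both come from the second listed RefSeq start on GRCh38.p14, plus strand, chr2:172556060-172556089 for PDK1 and chr17:50095209-50095238 for PDK2, with matches to ACGTG or CACGTG on either strand in capitals.
PDK1: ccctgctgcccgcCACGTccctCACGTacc
PDK2: gcccgggggaagcCACGTGccggggcggaa
PDK1 held ACGTG 2 times on the opposite strand, from bases -17 and -8, and no CACGTG. PDK2 also held ACGTG 2 times, both inside 1 CACGTG from base -129. The outermost start of each gene and the third start of PDK2 had no match to either motif. Which start A375 cells use was not measured by these arrays. Of the 14 listed starts of the 8 genes, 5 held ACGTG, each in a different gene, against 21.4% of all promoter windows. These genes were LDHA and PDK1, which fell, PDK2 and PC, which rose, and PDK3, which did not pass. CACGTG was held by 2 of the 14 starts, in LDHA and PDK2, against 7.3% of windows. Neither share was tested. None of the 14 starts of the 8 genes held AAGGTCA, a half-site of nuclear receptors, or GTAAACA, a forkhead motif, which 3.9% and 3.4% of all promoter windows held. At shares this low, absence from 14 starts sets nothing apart. CCGGAA, the core recognised by ETS factors, was found at the 2 starts of LDHA and at no other of the 14, against 17.2% of all windows. The shares of these motifs were not tested either.

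PDHA1, the catalytic E1 alpha subunit that these kinases phosphorylate (probe set 8166335), hardly moved. Its level was 10.89, 10.77 and 10.98 with vehicle and 10.81, 10.77 and 10.91 with vemurafenib, so the groups overlapped. The change was -0.05 (SE 0.08, limma adjusted p 0.634), and its 95% interval of -0.22 to 0.12 bounds a shift in either direction well under the changes of PDK1 and PDK2. Transcript levels do not report the phosphorylation of the protein.

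PC, the mitochondrial enzyme that carboxylates pyruvate to oxaloacetate (probe set 7949719), read 9.01, 8.92 and 9.11 with vehicle and 9.62, 9.60 and 9.66 with vemurafenib. The drug arrays were tightly grouped and all lay above the vehicle arrays. The means were 9.01 ± 0.10 and 9.63 ± 0.03 (SD, n = 3), a change of 0.61 (SE 0.07, 95% interval 0.45 to 0.78) with a limma adjusted p of 4.08e-05. Its outermost promoter, chr11:66958384-66958633 on the minus strand of GRCh38.p14, is shown as that of a gene that rose with ACGTG matches (in capitals).
PC: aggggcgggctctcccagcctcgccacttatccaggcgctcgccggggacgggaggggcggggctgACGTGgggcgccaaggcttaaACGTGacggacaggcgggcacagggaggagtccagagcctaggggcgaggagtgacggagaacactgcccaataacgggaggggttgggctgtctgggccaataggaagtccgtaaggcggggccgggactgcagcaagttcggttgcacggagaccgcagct
The matches begin at bases -184 and -163 and neither is part of a CACGTG. PC has 3 listed starts, and the inner ones held no match.

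By Pearson correlation of log2 values over the 6 arrays, the genes most like PDK2 were SIDT2 (r = 0.9993), IKBKE (0.9991) and SEPTIN6 (0.9990). Those most like PDK1 were PATL1 (0.9996), FRMD4A (0.9996) and BCAR3 (0.9995). With 6 arrays in 2 groups, such values mostly reflect the shared step between vehicle and drug.

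Related genes were read from 6 lists, with 55 genes measured, of which 13 rose and 12 fell. Among all genes 23.2% passed as higher and 22.2% as lower, so calls in the 6 lists together were about as common as elsewhere. Counts within single lists of 5 to 11 measured genes were not tested against those shares. Of 10 partners and phosphatases of the pyruvate dehydrogenase complex, 0 rose and 4 fell, with a median change of -0.05, equal to that of all genes. PDP1, the main phosphatase that reactivates the complex, went from 12.51 ± 0.10 to 11.65 ± 0.11 (SD, n = 3), a change of -0.86 (limma adjusted p 6.40e-06). Its values were 12.62, 12.49 and 12.42 with vehicle and 11.69, 11.73 and 11.52 with vemurafenib, far apart. DLAT, the acetyltransferase core of the complex, changed by -0.44 (limma adjusted p 0.00136), from values of 10.70, 10.44 and 10.69 to 10.20, 10.11 and 10.21. The other subunits did not pass, with PDHB at 0.07, PDHX at -0.02 and DLD at 0.14.

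The calls of the remaining fallers on that list were fragile. LIAS, which makes the lipoyl cofactor of DLAT, changed by -0.26 (limma adjusted p 0.0341). Its call ended without vehicle replicate 3 or without any single vemurafenib array (limma adjusted p 0.0155 to 0.147 over all alternatives). PDHA2, the testis form of the E1 alpha subunit, changed by -0.33 (0.0186) at levels of 6.40 and 6.07. Both lie under 7.28, the 95th percentile of the array's olfactory receptor genes and the mark used here for background, so PDHA2 was not shown to be above background. Its call ended without replicate 2 of either group (adjusted p 0.00914 to 0.0766 over all limma alternatives). Without vemurafenib replicate 2 the list held 2 calls in place of 4, and with renewed quantile normalization it held 6, DLD (limma adjusted p 0.0361, range 0.0361 to 0.387) and PDPR (0.0176, range 0.0147 to 0.229) passing as higher.

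Of 10 genes that supply pyruvate or bring it into mitochondria, 2 rose and 2 fell, with a median of -0.00. PCK2, the mitochondrial enzyme that turns oxaloacetate into phosphoenolpyruvate, read 8.70, 8.67 and 8.86 with vehicle and 9.71, 9.40 and 9.43 with vemurafenib, a change of 0.77 (limma adjusted p 4.86e-05). ME3, a mitochondrial malic enzyme, changed by 0.43 (0.000625). PKLR, the liver and red cell pyruvate kinase, changed by -0.44 but lay at 7.27 and 6.82, not shown to be above background. The call of GPT, an alanine aminotransferase (-0.25, limma adjusted p 0.0324), ended without vehicle replicate 2 or 3 or vemurafenib replicate 2 or 3 (range 0.0110 to 0.128). The mitochondrial pyruvate carrier genes MPC1 and MPC2 stood at -0.00 and -0.03, with 95% intervals of -0.18 to 0.18 and -0.21 to 0.15. PKM, the main pyruvate kinase of tumour cells, stood at -0.18 (95% interval -0.33 to -0.03, limma adjusted p 0.0522). It passed with arrays centred, without the dimmest 25% of genes and with the trend and robust fit, the adjusted p running from 0.00209 to 0.165.

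Among 10 other lactate dehydrogenase and lactate transport genes, 2 rose and 1 fell, and the median was -0.07. SLC5A12, a sodium-coupled lactate transporter best known from kidney, read 7.45, 7.45 and 7.57 with vehicle and 9.13, 9.30 and 9.20 with vemurafenib. The change of 1.72 (SE 0.08, 3.29-fold, limma adjusted p 1.79e-08) exceeded that of PDK2, and its vehicle mean of 7.49 lay only a little above the olfactory receptor percentile of 7.28. SLC16A7, the monocarboxylate transporter MCT2, fell from 10.42 ± 0.14 to 9.67 ± 0.08 (SD, n = 3), a change of -0.75 (limma adjusted p 2.47e-05). BSG, the chaperone of monocarboxylate transporters, stood at 0.16 (0.0867) and its relative EMB at -0.33 (0.0553). EMB passed in 5 of 14 alternatives (limma adjusted p 0.0178 to 0.184 over all) and BSG in 2 (0.0147 to 0.258). LDHC, the testis lactate dehydrogenase, changed by 0.25 (0.0374) from levels not shown to be above background, and its call ended after centring and without vehicle replicate 2 or 3 or vemurafenib replicate 1 or 2 (limma adjusted p 0.0128 to 0.140). With the trend and robust fit the list held 5 calls, BSG and EMB among them.

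Lactate dehydrogenase shares NADH with the shuttles that carry reducing equivalents into mitochondria. Of 9 shuttle genes 0 rose and 4 fell, with a median of -0.06. GPD2, the mitochondrial glycerol phosphate dehydrogenase, changed by -0.67 (limma adjusted p 7.96e-05) and GOT1, the cytosolic aspartate aminotransferase, by -0.58 (2.72e-05). GOT1 read 11.72, 11.68 and 11.71 with vehicle and 11.14, 11.13 and 11.10 with vemurafenib, an SD of 0.02 in each group. SLC25A13, an aspartate and glutamate carrier, changed by -0.29 (0.0129). The call of GOT2 (-0.19, limma adjusted p 0.0434) ended after renewed quantile normalization and when any single array other than vehicle replicate 2 was left out (range 0.00230 to 0.133). The malate dehydrogenase genes MDH1 and MDH2 did not pass, at 0.16 and -0.06. MDH1 passed only after renewed quantile normalization (limma adjusted p 0.0443, range 0.0443 to 0.421).

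The branched-chain ketoacid dehydrogenase is built like pyruvate dehydrogenase and is held in check by BCKDK, the closest relative of the PDK kinases. Of 5 genes on its list, 4 rose and 0 fell, with a median of 0.43. The E1 subunit genes BCKDHA and BCKDHB changed by 0.62 and 0.59 (limma adjusted p 0.000100 and 7.35e-05) and DBT, the acyltransferase core, by 0.43 (0.00168). BCKDHA read 10.48, 10.36 and 10.36 with vehicle and 10.99, 10.90 and 11.16 with vemurafenib. The kinase gene BCKDK did not pass, at -0.05 (95% interval -0.24 to 0.13). The call of the phosphatase gene PPM1K (0.31, limma adjusted p 0.0360) ended after centring, with the mean of its probe sets and without replicate 1 or 2 of either group (range 0.00901 to 0.286).

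Of 11 transcription factors known from other work to act on members of the set, 5 rose and 1 fell, with a median of 0.18. MYC, an activator of LDHA, read 9.10, 8.84 and 8.84 with vehicle and 7.61, 7.50 and 7.62 with vemurafenib, a change of -1.35 (limma adjusted p 2.83e-07). HIF1A, the oxygen-regulated activator of LDHA and PDK1, did not pass at the transcript level (-0.13, 95% interval -0.30 to 0.04), while its partner ARNT changed by 0.60 (4.97e-05) and EPAS1, which encodes HIF2 alpha, by 0.58 (6.26e-05). Among factors that act on PDK4, the coactivator gene PPARGC1A changed by 2.11 (limma adjusted p 7.89e-07), the glucocorticoid receptor gene NR3C1 by 0.63 (2.72e-05) and PPARA by 0.37 (0.00700). PPARGC1A lay at 6.64 with vehicle, not shown to be above background, and at 8.76 with vemurafenib. FOXO1 (0.18, 0.0523), FOXO3, PPARD and ESRRA did not pass. FOXO1 did pass without the dimmest 25% of genes and without vemurafenib replicate 3 (limma adjusted p 0.0367 to 0.163 over all alternatives). The values of these factors moved beside those of the set, and their part in its changes was not tested.

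**Figure D4:**
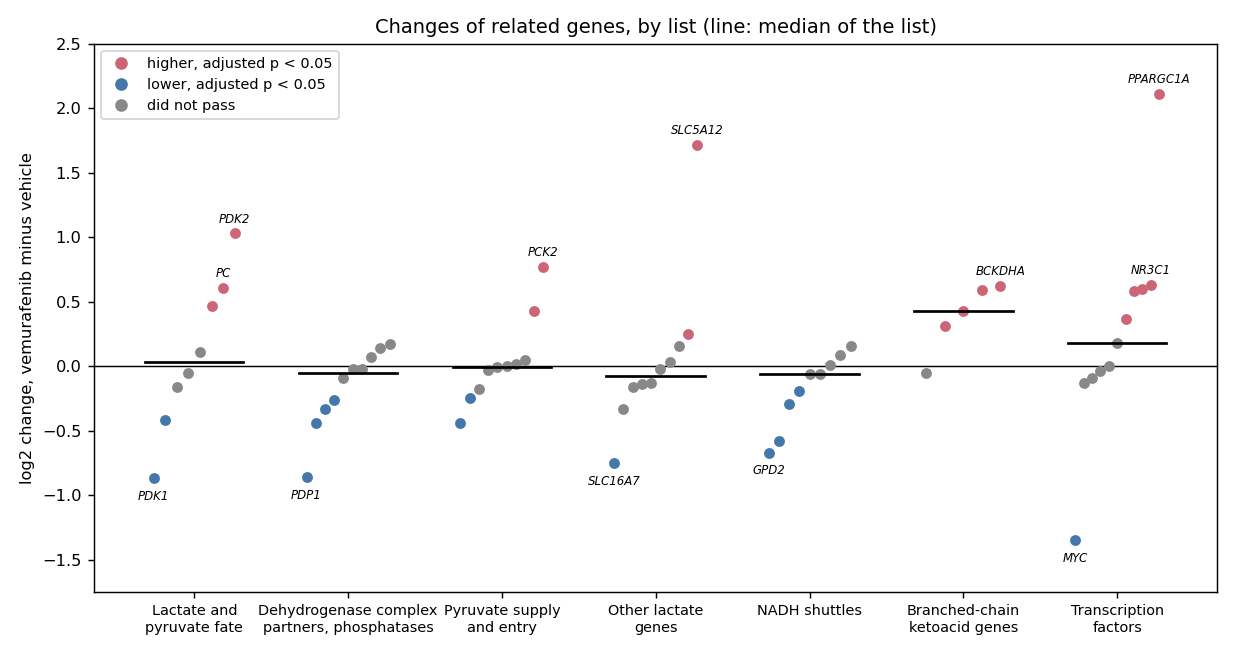
The y axis gives the log2 change, vemurafenib minus vehicle, of each measured gene in the set and in 6 related lists, with genes that rose in red, genes that fell in blue, genes that did not pass in grey and the median of each list as a line. SLC5A12 (1.72) and PPARGC1A (2.11) lie highest, MYC (-1.35) lies lowest, and the branched-chain list has the highest median (0.43).

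As a check of the drug, all 6 measured genes of ERK pathway output fell, with log2 changes from -2.49 (CCND1) to -4.21 (DUSP6). With vemurafenib DUSP6, SPRY4 and ETV5 were not shown to be above background, so background limits the measured size of their falls. Of 9 measured melanoma and pigment cell markers 5 rose and 1 fell, against 23.2% and 22.2% of all genes. SOX10, MITF and GPNMB lay at 10.17 or more in both groups and changed by 0.30, 0.75 and 1.36. S100B and S100A1 changed by 0.91 and 0.79, the latter from a level of 7.67. CSPG4, another melanoma marker, fell from 10.43 to 9.79, a change of -0.64 (limma adjusted p 4.61e-05). The pigment genes PMEL, MLANA and TYR were not shown to be above background in either group. Of 20 measured markers of other cell types (keratinocyte, fibroblast, endothelial and leukocyte), 13 lay under the olfactory receptor percentile in both groups. Over all genes 5449 of 18417 did. Of the 20 markers, 3 rose and 3 fell. The risers were the fibroblast markers LUM, PDGFRB and DCN, the last at 5.46 and 6.92, not shown to be above background in either group. The fallers were the endothelial markers KDR and PECAM1 and the leukocyte marker CD14, of which PECAM1 and CD14 were not shown to be above background in either group. The call of PECAM1 ended in 4 of 13 alternatives (limma adjusted p 0.00130 to 0.133 over all). Meanwhile the summed log2 level of the 6 fibroblast markers went from between 44.61 and 45.48 to between 47.91 and 49.06. This sum includes COL1A2 (-0.15) and COL3A1 (-0.04), which did not pass. The sum of the melanoma and pigment cell markers also rose, from between 79.34 and 79.84 to between 82.65 and 83.25. Sums of the endothelial and leukocyte markers fell, and that of the keratinocyte markers overlapped between groups. Under the olfactory receptor percentile in both groups lay 4 of 5 endothelial, 4 of 4 leukocyte, 3 of 5 keratinocyte and 2 of 6 fibroblast markers. The endothelial and leukocyte sums thus rest largely on genes not shown to be above background. The part of these markers in the changes of the set was not tested. COL1A1, a defining fibroblast gene, stood at 8.41 and 8.42.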

How the data were processed

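RNA of A375 cells was measured on 6 single-colour arrays, 3 per group, with groups taken from the sample labels. The authors deposited log2 values for each probe set. RMA and Partek are both named per the submitters' processing notes, while versions, genome build and batch handling were not given in the sources used here. RMA as usually run compresses large changes and removes any shift in the RNA content of cells. The table held 33297 probe sets, with 0 columns of other samples and array medians of 7.69 to 7.73. Arrays carry no depth, so their number limits the precision.

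Genes came from the 2016 platform annotation, in which probe sets split as follows: 19460 carried 1 symbol, 1754 several and 12083 none. The probe set with the highest mean was kept per gene, which left 18417 genes, with no filter on dim ones. Groups were compared with limma 3.58.1 under R 4.3.3 (lmFit and eBayes, group as the only term, 2-sided, Benjamini-Hochberg adjustment over all genes, threshold 0.05), and it was checked on simulated data. There 18% of genes given a log2 change of 0.25 were recovered and 98% of those given 0.5, with 13 false calls. A small change that did not pass may thus have been missed. Members and lists were chosen with earlier results of these data known. The naming rule was all members of the set, genes of the lists with those past the threshold first, and the 3 genes most correlated with each of the 2 most changed members. The lists hold further genes whose values are not printed. The background mark is the 95th percentile of 341 olfactory receptor genes. Promoter windows are from RefSeq (GRCh38.p14), and all 8 genes matched. Alternatives were trend and robust eBayes, centred arrays, renewed quantile normalization, a fixed replicate block, a random one (statmod 1.5.0), no genes from the dimmest 25%, probe sets averaged per gene or all 19460 tested singly, and omission of each array. Figures were drawn with Python 3.11.15 and matplotlib 3.10.9.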

Additional observations from a re-analysis of the deposited data

How the results depend on the processing

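The 5 calls of the set (LDHA, PDK1, PDK2, PDK4 and PC) kept their direction and passed in all 14 alternatives, with adjusted p no higher than 0.00782 (PDK4). With arrays left out in turn, the changes ran from -0.45 to -0.38 for LDHA, -0.91 to -0.84 for PDK1, 0.98 to 1.07 for PDK2, 0.41 to 0.56 for PDK4 and 0.57 to 0.66 for PC. LDHB passed with centring (-0.22) and with trend and robust eBayes (-0.16, its size unchanged, with SE 0.05 in place of 0.08). Centring shifts all genes of an array by the same value, so it moved every change down by the same amount. It took LDHA to -0.48, PDK2 to 0.97 and the median change of all genes from -0.045 to -0.106. Why the array medians differed was not tested. PDHA1 ran from -0.11 to 0.00, the upper value, without vehicle replicate 3, being marginally positive. The count of complex partners and phosphatases ran from 2 to 4 with arrays left out, and was 6 after renewed quantile normalization. The other lactate genes numbered 5 with trend and robust eBayes. Genes called over the whole table ran from 7218 to 9312, against 8371. Centring moved the split from 4281 higher and 4090 lower to 3682 and 5630. The labels give a batch letter for 1 array only, so the lettered pairs could not be matched to arrays. Same-numbered vehicle and drug arrays did not all deviate together (correlations 0.14, -0.18 and -0.25 over genes), and the numbers were not taken as pairs. Higher correlations were seen between vehicle replicate 2 and vemurafenib replicate 3 (0.28) and between vehicle replicate 3 and vemurafenib replicate 2 (0.22), which the labels do not tie together. With the replicate block 7606 genes passed, and the same 5 members of the set, while the calls of LIAS, GPT, GOT2 and PPM1K ended. With the random block those of GOT2 and LDHC ended.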
